A study of Homo sapiens with 12 samples.

Results

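SOX2 was silenced with 1 siRNA (siSOX2) in the human embryonal carcinoma cell (hECC) lines 2102Ep and NTera-2, and the change of every gene in one line was set against its change in the other. The quantity described is the difference in response, which is the log2 change after siSOX2 in 2102Ep minus the log2 change after siSOX2 in NTera-2. A positive difference belongs to a gene that rose more, or fell less, in 2102Ep. The comparison used all 12 arrays of the series and 18404 genes, each through the brightest of its probe sets that match no other gene, and 305 of those genes (1.66%) were called different between the lines.

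There were 4 groups of 3 arrays, labelled as biological replicates: 2102Ep with a non-targeting siRNA, 2102Ep with siSOX2, NTera-2 with the same non-targeting siRNA and NTera-2 with siSOX2. Cells were plated 24 hours ahead, kept in the transfection mix for 6 hours and harvested after a further 72 hours in serum medium. 2102Ep cells were at passage 35 to 50 and NTera-2 cells at passage 40 to 50. The lines were transfected with different Lipofectamine reagents (RNAiMAX in NTera-2), and the amount of siRNA also differed. Line, lipid, siRNA amount and the extent of the knock-down in RNA therefore cannot be told apart in any value below. Both lines carry the stem cell component of a germ cell tumour. NTera-2 is pluripotent and readily forms neural cells under retinoic acid, whereas 2102Ep resists retinoic acid and is called nullipotent. RNA was read on the Affymetrix Human Gene 1.0 ST array, which has probes along the whole transcript, and signals are given on a log2 scale.

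SOX2 is a DNA-binding protein of the HMG-box family that works with OCT4 and NANOG to keep pluripotent cells undifferentiated. When pluripotent cells leave that state towards mesoderm, they pass through a primitive streak programme that Wnt, BMP and Nodal signals switch on and that T-box and homeobox factors carry out. Cells that turn mesodermal lay down new matrix and change their cadherins. Fibroblast growth factors act through the ERK kinases, whose activity is read in the level of feedback genes such as the dual-specificity phosphatases.

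Over all genes, the correlation between arrays was 0.9825 to 0.9943 within a group, 0.981 to 0.9927 between the siRNAs of a line and 0.9485 to 0.9723 from line to line. Of 13 hECC markers, 11 were measured by a probe set of 1 gene, the exceptions being POU5F1, which encodes OCT4, and NANOG, and their mean control signals ran from 9.05 to 12.89 in 2102Ep and from 5.66 to 13.67 in NTera-2. ZFP42, a marker of undifferentiated cells, gave the lowest of these in NTera-2, with a mean of 5.66 against 9.80 in 2102Ep. Among the defining markers of fibroblasts (8 of 8 measured), leukocytes (7 of 8) and endothelium (6 of 6) no difference in response was called, against 1.66% of all genes. In wider lists of 11 genes each, a fibroblast marker, POSTN (1.84), and an endothelial marker, the VEGF receptor gene FLT1 (1.31), were called higher in 2102Ep (9.09% of either list), and no leukocyte marker was. The defining fibroblast markers had control means of 3.19 to 10.85 in 2102Ep and 3.69 to 11.44 in NTera-2, the leukocyte markers 4.30 to 8.41 and 4.11 to 8.36, and the endothelial markers 5.60 to 8.19 and 5.68 to 9.52.

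The targeted gene itself responded differently. SOX2 signals were 12.28, 12.21 and 12.20 in 2102Ep control, 9.17, 9.30 and 8.80 in 2102Ep siSOX2, 12.51, 12.52 and 12.63 in NTera-2 control and 11.92, 11.95 and 11.86 in NTera-2 siSOX2. Every siSOX2 array lay below every control array of its line, and the drop in RNA was far deeper in 2102Ep. SOX2 fell by 3.14 in 2102Ep, leaving 11.4% of the control signal, and had a change of -0.64 in NTera-2, leaving 64.0%. The difference in response was -2.49 ± 0.165 (SE), a 5.62-fold gap between the changes (limma, adjusted p = 4.87e-08). The starting levels of SOX2 differed by -0.33. By qRT-PCR the paper likewise found more SOX2 RNA left in NTera-2 than in 2102Ep, with less left in each line than on these arrays. These values are of RNA only, and by Western blot the paper detected no SOX2 protein after siSOX2 in 2102Ep or NTera-2. In RNA from whole cultures, fewer cells with the transcript and less of it per cell cannot be told apart, for SOX2 and for every gene below.

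Of the 305 genes with a called difference, 182 (0.989% of all genes) responded more positively in 2102Ep and 123 (0.668%) more negatively. The change was the larger one in 2102Ep for 257 of them and the larger one in NTera-2 for 48. The median gene of the 182 rose by 1.38 in 2102Ep against a change of 0.01 in NTera-2, and the median gene of the 123 fell by 1.13 in 2102Ep against a change of 0.13 in NTera-2. Read by each line's own test, 191 of the 305 changed in 2102Ep alone (where 1.98% of all genes were called, 1.15% upwards and 0.826% downwards), 29 in NTera-2 alone (0.657% of all genes, 0.31% upwards and 0.348% downwards), 14 in both lines in the same direction and 4 in opposite directions. The remaining 67 passed in neither line and differed only by the sum of 2 changes that were each too small or too uncertain to be called. The difference was at least 4-fold for 50 genes, 39 of them higher in 2102Ep and 11 lower.

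**Figure D1:**
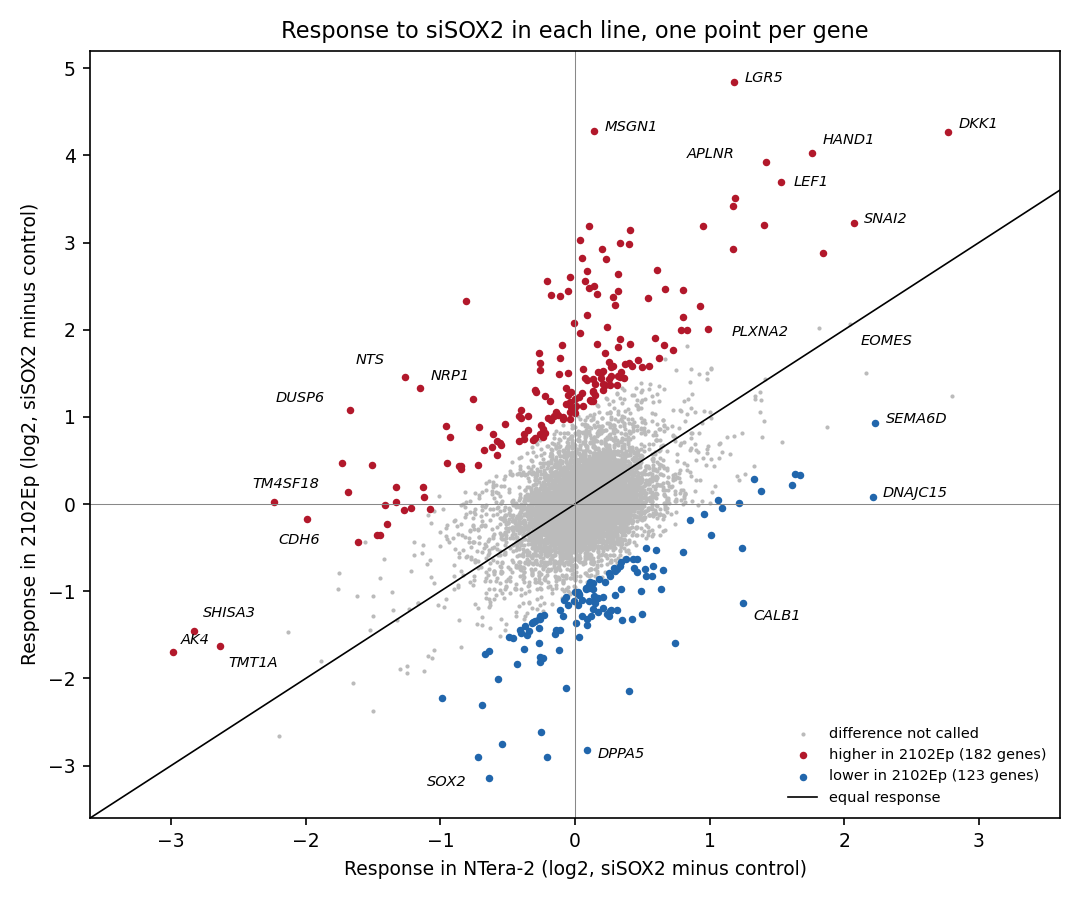
Each point is a gene, placed by its change after siSOX2 in NTera-2 (horizontal axis, log2) and in 2102Ep (vertical axis, log2), with the line of equal response drawn in black. The 182 genes with a called difference higher in 2102Ep (red) spread mainly upwards above an NTera-2 change near 0, and the 123 lower genes (blue) mainly downwards, while SEMA6D, DNAJC15, TM4SF18 and CDH6 lie out along the NTera-2 axis.

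The absence of a called difference is not the same as an equal response. The 95% interval of the difference lay within -1 to 1 for 17205 genes (93.5%), so that for these a gap between the lines of over 2-fold is outside the interval. With an adjusted p of 0.05 and no minimum size, 957 genes differed. The median difference of all genes was -0.05, with a median SE of 0.171.

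Primitive streak and early mesoderm genes held the gene with the largest difference, MSGN1, and no gene that was called lower in 2102Ep. Of 27 measured genes of this list, 9 were called higher in 2102Ep and none lower, which is 33.3% against 1.66% of all genes, and the median difference of the list was 0.63. This list and those below were chosen with earlier results of these data known, so their shares describe them and test nothing. Some called genes, such as TBX3, FZD7, MSX2 and CER1, are on more than 1 list, so the counts of the lists overlap. MSGN1, a transcription factor of presomitic mesoderm, read 7.17, 7.04 and 7.42 in 2102Ep control and 11.60, 11.57 and 11.31 after siSOX2. In NTera-2 it read 6.74, 6.69 and 6.85 in control and 6.90, 6.87 and 6.92 after siSOX2. The 2102Ep siSOX2 arrays stood about 4 log2 units over the other 9, which all lay between 6.69 and 7.42. The difference of 4.14 ± 0.163 (SE), or 17.7-fold, was the largest of all genes (adjusted p = 9.36e-11). TBXT, or brachyury, the T-box factor that marks the streak, behaved alike: its mean went from 7.03 to 10.01 in 2102Ep and from 6.83 to 7.23 in NTera-2, a difference of 2.58 ± 0.171 (adjusted p = 4.87e-08). EVX1 (difference 1.54), CDX2 (1.21) and TBX3 (2.36), a homeobox factor of the posterior streak, one of the caudal axis and trophoblast, and a T-box factor, were each called in 2102Ep alone.

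Other streak genes rose in both lines but further in 2102Ep. HAND1, a basic helix-loop-helix factor of lateral mesoderm and extraembryonic tissue, rose by 4.03 in 2102Ep and by 1.76 in NTera-2, so that the difference was 2.26 ± 0.136. MIXL1, a homeobox factor of the streak, rose by 3.42 and 1.17 (difference 2.25), and APLNR, the apelin receptor of early mesoderm, by 3.92 and 1.42 (difference 2.50). LHX1, a LIM-homeobox factor of the node and intermediate mesoderm, was called in 2102Ep (1.91) and had a change of 0.59 in NTera-2 (difference 1.32). EOMES, the T-box factor that precedes mesoderm and endoderm, was the exception among the strongly induced streak factors. Its signals were 8.12, 8.24 and 7.90 in 2102Ep control, 10.38, 10.21 and 9.86 after siSOX2, 7.58, 7.87 and 7.27 in NTera-2 control and 9.55, 9.72 and 9.58 after siSOX2. The siSOX2 arrays lay above the control arrays in both lines by nearly the same distance. The rise of EOMES was 2.06 in 2102Ep and 2.04 in NTera-2, with a difference of 0.02 and a 95% interval of -0.44 to 0.48. GSC, the goosecoid factor of the organiser, was called in neither line (changes of 0.10 and 0.03). TBX6, which acts beside MSGN1 in presomitic mesoderm, had a difference of 0.94 (interval 0.53 to 1.36) and stayed under the 2-fold threshold.

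**Figure D2:**
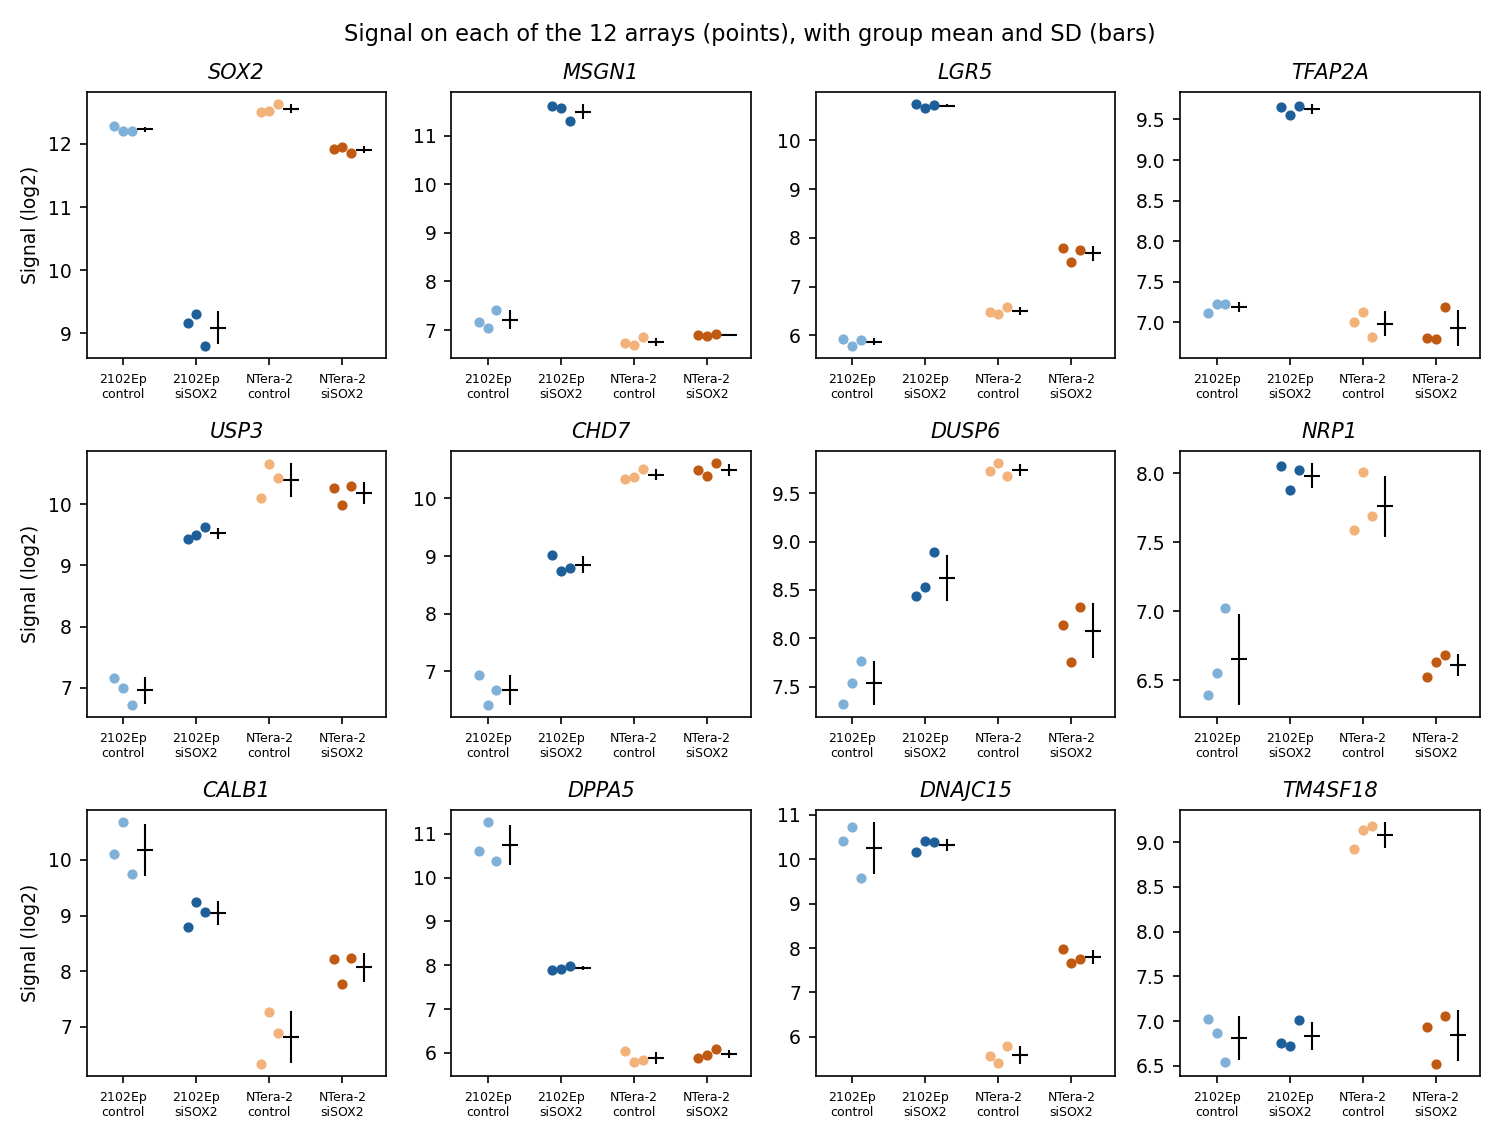
Log2 signal on each of the 12 arrays for 12 genes, with points for single arrays, horizontal bars for the group mean and vertical bars for the SD of the 3 arrays; each panel has its own vertical axis, which does not start at 0. MSGN1, LGR5 and TFAP2A were highest on the 2102Ep siSOX2 arrays, USP3 and CHD7 lowest on the 2102Ep control arrays, DUSP6 and NRP1 moved in opposite directions, and TM4SF18 stood high only on NTera-2 control arrays.

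Wnt target genes differed in both directions, mostly upwards. Of 21 measured Wnt target and feedback genes, 5 were called higher in 2102Ep and 2 lower (33.3%), with a median difference of 0.73. LGR5, a receptor for R-spondins and a Wnt target, read 5.93, 5.78 and 5.91 in 2102Ep control, 10.74, 10.67 and 10.72 after siSOX2, 6.47, 6.43 and 6.59 in NTera-2 control and 7.79, 7.50 and 7.74 after siSOX2. Groups did not overlap, and the step in 2102Ep was the larger although that line began lower. LGR5 rose by 4.84 in 2102Ep and by 1.18 in NTera-2, with a difference of 3.66 ± 0.147 (12.6-fold, adjusted p = 9.36e-11). LEF1, a DNA-binding partner of beta-catenin, rose by 3.70 and 1.53, which took a starting gap of -1.52 between the lines to an ending gap of 0.66. DKK1, a secreted Wnt antagonist, rose by 4.27 and 2.77 (difference 1.51), and NKD1, an intracellular feedback inhibitor, had changes of 2.28 and 0.30 (difference 1.98). AXIN2, the feedback gene most often used to read Wnt activity, had changes of 0.22 and 0.01 and a difference of 0.21 (interval -0.11 to 0.54). The lower genes were FZD7, a Wnt receptor of pluripotent cells (-1.19), and SP8, a zinc finger factor of limb and forebrain (-1.02). SP8 lay at the threshold, and its difference came to -0.91 without 2102Ep control replicate 3, -0.92 when 2102Ep siSOX2 replicate 2 was dropped, -0.99 without NTera-2 control replicate 2 or replicate 3 and -0.94 without NTera-2 siSOX2 replicate 3. It was also under the threshold with median centring (-0.96) and with array weights (-0.95). TCF7L1, a repressor of Wnt targets in pluripotent cells that was on no list, fell by 1.49 in 2102Ep and had a change of -0.15 in NTera-2 (difference -1.34).

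Among 50 Wnt ligands, receptors and secreted modulators, 7 were higher and 1 lower (16%), with a median difference of 0.05. WNT5A, a ligand that acts mostly without beta-catenin, read 6.46, 6.06 and 6.49 in 2102Ep control, 9.47, 9.44 and 9.52 after siSOX2, 8.37, 8.40 and 8.45 in NTera-2 control and 8.84, 8.76 and 8.85 after siSOX2. 2102Ep began 2.07 below NTera-2 and ended 0.66 above it. The difference for WNT5A was 2.73 ± 0.159 (adjusted p = 1.62e-08). WNT8A, a ligand of the early streak, had a difference of 2.12, and its means in the other groups lay between 6.77 and 7.09 against 9.29 in 2102Ep siSOX2. FZD2, a Wnt receptor (1.32), RSPO3, an R-spondin that amplifies Wnt signals (1.21), and WLS, the carrier that brings Wnt proteins to the surface (1.03), were higher too. FZD2 and WLS began lower in 2102Ep, by 1.59 and 1.33 on the log2 scale, and ended within -0.27 and -0.30 of NTera-2. The call of WLS was lost without 2102Ep control replicate 2 (0.93), NTera-2 control replicate 1 (0.95) or replicate 3 (0.98), or NTera-2 siSOX2 replicate 1 (0.99). SHISA3 and SFRP2, which hold back Wnt receptors and ligands, had positive differences because they fell further in NTera-2. SHISA3 fell by 1.46 in 2102Ep and by 2.83 in NTera-2, and SFRP2 had a change of -0.23 in 2102Ep and fell by 1.40 in NTera-2.

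Promoters of these genes were searched for the letters that TCF/LEF factors (ATCAAAG), SOX factors (ACAATGG) and T-box factors (TCACACCT) bind, on both strands, in the 300 bases around the start of each transcript that RefSeq gives as its promoter on GRCh38.p14. Promoters were found for 137 of the 182 higher genes and 84 of the 123 lower genes. The TCF/LEF letters stood in 0.995% of the promoters of higher genes (2 of 201), in 3.48% of those of lower genes (4 of 115), and in 2.01% of the promoters of all genes tested (405 of 20100). The SOX letters stood in 1.99%, 1.74% and 2.45%, and the T-box letters in 0.498%, 0.87% and 0.896%. In the higher genes the share was below that of all genes tested for each of the 3 motifs, and only the TCF/LEF letters in the lower genes were above it, by counts of 4 or fewer. The windows below, on the strand of the gene and with the motif in capitals, are those in genes described in the text. MIXL1 lies at chr1:226223577-226223606 (plus strand, TCF/LEF letters in reverse), HAND1 at chr5:154478255-154478284 (minus strand, TCF/LEF), SEMA6D at chr15:47183903-47183932 (plus strand, TCF/LEF) and TBXT at chr6:166168003-166168032 (minus strand, SOX letters in reverse). ITPRID1, a lower gene, has windows in 2 of its promoters, at chr7:31529753-31529782 (plus strand, TCF/LEF in reverse) and chr7:31514007-31514036 (plus strand, SOX), and VENTX, also lower, has one at chr10:133237709-133237738 (plus strand, T-box in reverse).
MIXL1: cccgagcccacCTTTGATcgcaccgccccg
HAND1: gagaggttgacATCAAAGccgcggtcttat
SEMA6D: gcaacgacaaaATCAAAGcaaggtcctttg
TBXT: cgtgcgggagcCCATTGTtggcccccggcc
ITPRID1, TCF/LEF: ctccacacataCTTTGATgccaactacagc
ITPRID1, SOX: ttttccttaggACAATGGgtgtggattatg
VENTX: aggagccggggAGGTGTGAacggcctcctt
A match of letters is not a bound site, and its absence from a window of this length says nothing of the factor.

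BMP and Nodal genes with a called difference were of either sign. Of 24 measured BMP pathway genes, 5 were higher in 2102Ep and 1 lower (25.0%), with a median difference of 0.35. The ligand BMP2 read 7.39, 7.21 and 7.49 in 2102Ep control, 10.33, 10.13 and 10.38 after siSOX2, 7.59, 7.18 and 7.31 in NTera-2 control and 8.47, 8.66 and 8.45 after siSOX2. Starting levels overlapped and all 3 siSOX2 arrays rose over control in both lines. BMP2 rose by 2.92 and 1.17, a difference of 1.75 ± 0.174 (adjusted p = 5.17e-06). ID2, an inhibitor of basic helix-loop-helix factors and a BMP target, had changes of 1.83 and -0.10 (difference 1.93), and MSX2, a homeobox target of BMP, 2.27 and 0.93 (1.34). BAMBI, a decoy receptor that BMP induces, and BMPER, a secreted BMP modulator, had differences of 1.14 and 1.24. The antagonist GREM1 went the other way (-1.22): it rose by 1.38 in NTera-2 and had a change of 0.15 in 2102Ep.

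FST, an activin and BMP antagonist, likewise moved mainly in NTera-2. Its signals were 8.0, 7.70 and 8.06 in 2102Ep control, 8.43, 8.18 and 8.18 after siSOX2, 9.71, 9.55 and 9.78 in NTera-2 control and 11.32, 11.20 and 11.41 after siSOX2. FST rose by 1.63 in NTera-2 with a change of 0.34 in 2102Ep (difference -1.29 ± 0.170). In the Nodal list of 17 genes it was the lower of the 2 called genes. The higher was CER1, a secreted antagonist of Nodal, BMP and Wnt, which rose by 3.51 in 2102Ep and 1.19 in NTera-2 and began 2.13 higher in 2102Ep. NODAL itself had changes of 0.81 and 0.06, and its difference of 0.75 (interval 0.30 to 1.21) was not called (adjusted p = 0.052).

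In the ERK feedback and target list of 19 genes, DUSP6 and IER3 were called, both higher (10.5%), and the median difference was 0.24. DUSP6, the phosphatase that switches off ERK, read 7.32, 7.54 and 7.77 in 2102Ep control, 8.44, 8.53 and 8.89 after siSOX2, 9.73, 9.81 and 9.68 in NTera-2 control and 8.14, 7.76 and 8.32 after siSOX2. The lines crossed, as 2102Ep began 2.20 below NTera-2 and ended 0.55 above it. DUSP6 rose by 1.08 in 2102Ep and fell by 1.67 in NTera-2, and the difference of 2.75 ± 0.215 was called (adjusted p = 3.07e-07). IER3, an immediate early gene, had changes of 0.91 and -0.25. SPRY4, another ERK feedback inhibitor, had a difference of 0.96 (interval 0.48 to 1.43) and stayed under the threshold, whereas SPRY2 (-0.17) and DUSP4 (-0.18) had intervals within -0.51 to 0.16. The count rose from 2 to 4 without NTera-2 control replicate 1, without NTera-2 siSOX2 replicate 3, or with each array centred on its median. Of 27 FGF ligands and receptors only FGFR3, a receptor tyrosine kinase, was called, at -1.33 (3.7%). The ligand FGF2 had changes of -0.62 and 0.09.

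Every mesenchymal and matrix gene with a called difference was higher in 2102Ep. Of 39 measured mesenchymal and matrix genes, 10 were higher and none lower (25.6%), with a median difference of 0.30. CDH11, a mesenchymal cadherin, read 7.27, 6.93 and 7.05 in 2102Ep control, 10.34, 10.11 and 10.38 after siSOX2, 9.31, 9.32 and 9.43 in NTera-2 control and 10.30, 10.17 and 10.44 after siSOX2. The lines began 2.27 apart and the siSOX2 groups overlapped. CDH11 rose by 3.19 in 2102Ep with a change of 0.95 in NTera-2, a difference of 2.24 ± 0.164 (adjusted p = 1.39e-07). The fibronectin gene FN1 ran likewise, from a start of -1.99 to an end of -0.34 between the lines (difference 1.65). CDH2, or N-cadherin, rose by 1.21 in 2102Ep and had a change of -0.76 in NTera-2, so that 2102Ep went from 1.36 below NTera-2 to 0.61 above it. The gelatinase MMP2 had a difference of 1.92 and SNAI1, a repressor of CDH1, 1.30. SNAI2, its relative on the neural crest list, rose in both lines, by 3.22 and 2.07, and its difference of 1.15 came to 0.96 without NTera-2 control replicate 2. POSTN, the matrix protein periostin, had a difference of 1.84 because it fell by 1.69 in NTera-2 with a change of 0.14 in 2102Ep.

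Epithelial genes with a called difference were also higher in 2102Ep. Of 32 measured, 4 were higher in 2102Ep and none lower (12.5%), with a median of 0.35. They were RAB25, a small GTPase of epithelia (1.43), GRHL2, a transcription factor of epithelia (1.23), CLDN4, a tight junction protein (1.08), and JUP, or plakoglobin (1.05). The call of CLDN4 was lost without 2102Ep siSOX2 replicate 2 (0.96), and that of JUP without 2102Ep control replicate 2 (0.94) or NTera-2 control replicate 2 (0.98), and with array weights (0.95). CDH1, or E-cadherin, rose by 1.54 in NTera-2 from a mean of 7.75 and had a change of 0.71 in 2102Ep from 11.33. Its difference of -0.83 had an interval of -1.28 to -0.37 and was under the size threshold. Vimentin (VIM), a filament of mesenchymal cells, had changes of 0.29 and -0.21 from starts of 9.36 and 11.59.

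Factors of trophoblast, amnion and neural crest were mostly higher where called. TFAP2A, an AP-2 factor of surface ectoderm, crest and trophoblast, read 7.12, 7.23 and 7.22 in 2102Ep control, 9.65, 9.56 and 9.67 after siSOX2, 7.0, 7.13 and 6.82 in NTera-2 control and 6.81, 6.80 and 7.19 after siSOX2. Only the 2102Ep siSOX2 arrays stood apart. The difference for TFAP2A was 2.49 ± 0.167 (adjusted p = 5.16e-08). GATA3, a zinc finger factor of trophoblast (changes 2.15 and 0.80, difference 1.35), and KRT23, a keratin (1.61), were higher as well. In the list as a whole 7 of 22 genes were higher and 1 lower (36.4%, median 0.24), but 4 of the 7, namely CDX2, HAND1, TBX3 and TFAP2A, are also in the streak or crest lists. The lower gene, TFAP2C, an AP-2 factor of germ and trophoblast cells, had a difference of -1.06, which came to -0.98 without 2102Ep siSOX2 replicate 3 or NTera-2 control replicate 1 and to -0.99 after a second quantile normalization. Of 18 neural crest genes, 4 were higher (22.2%, median 0.06), among them ETS1, a transcription factor of migrating cells, with changes of 0.47 and -0.95. Of 31 neural ectoderm genes none was higher and 2 were lower (6.45%, median -0.03): HESX1, a forebrain repressor (changes -2.23 and -0.99), and OLIG3, a factor of the dorsal neural tube (-0.71 and 0.58). The neural ectoderm factors PAX6 (difference -0.43, interval -0.91 to 0.06) and SOX1 (-0.06, interval -0.40 to 0.28) had control means of 5.95 to 7.34 over both lines and no call.

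**Figure D3:**
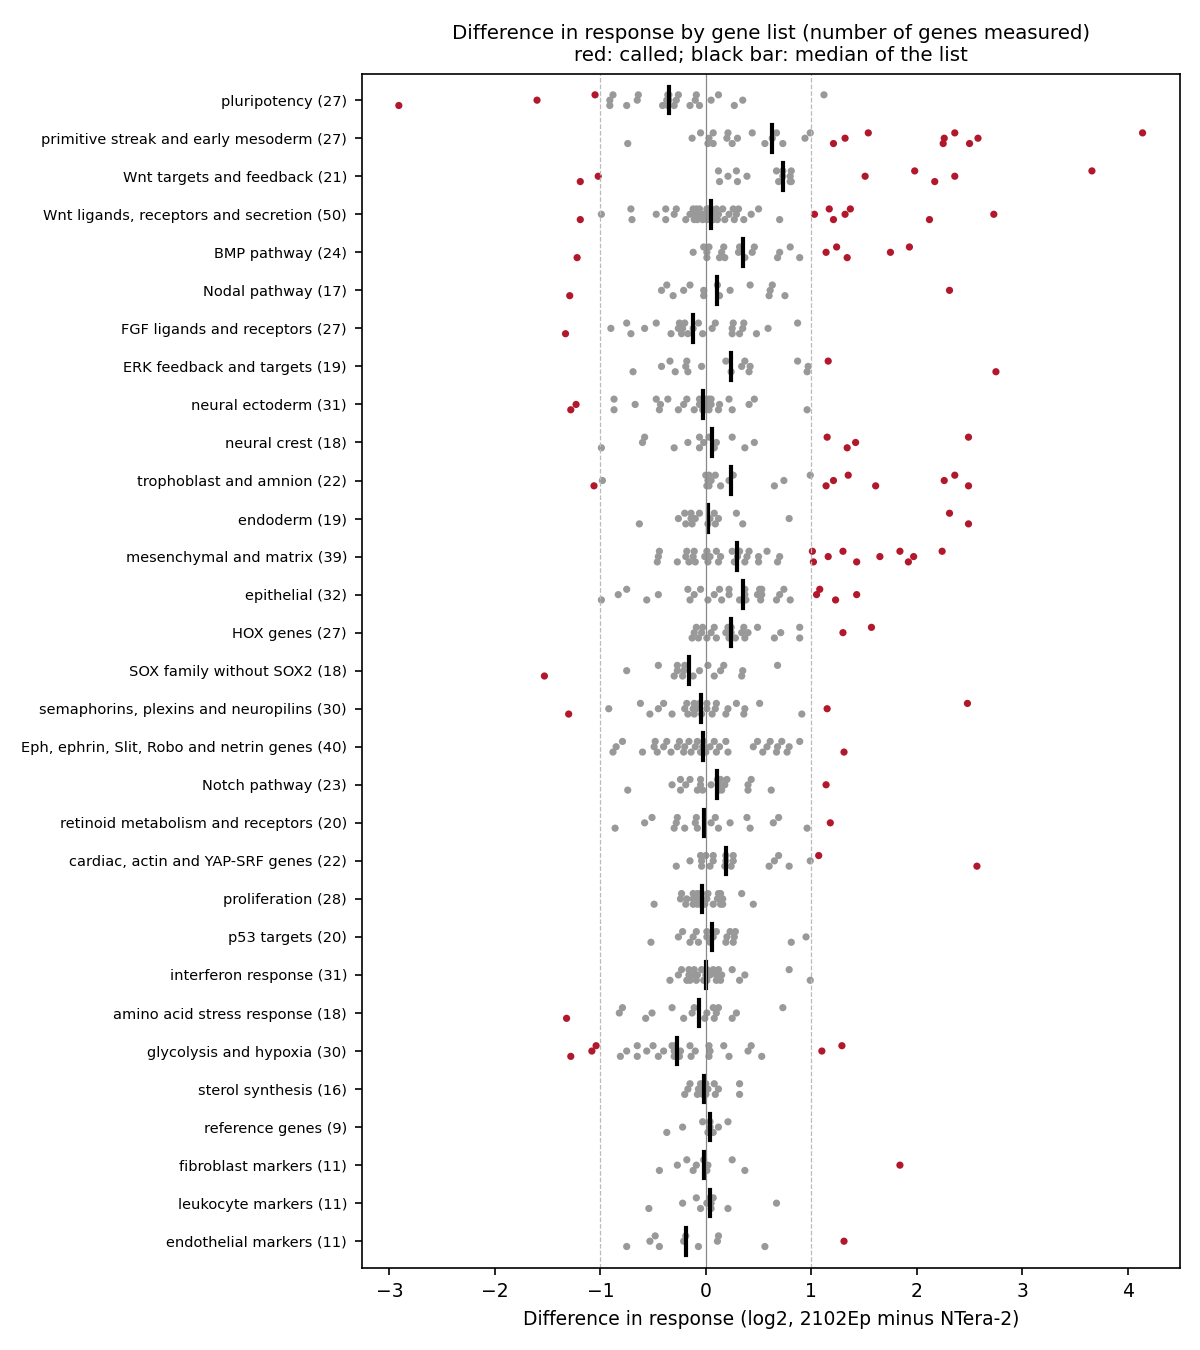
Difference in response (horizontal axis, log2, 2102Ep minus NTera-2) of every measured gene of each list, with called genes in red, others in grey, the median of the list as a black bar and the size threshold of 1 as dashed lines. The medians of primitive streak (0.63) and Wnt target (0.73) genes lie farthest to the right, that of pluripotency genes (-0.35) farthest to the left, and the median of all genes is -0.05.

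Several of the largest positive differences were in genes outside the streak, Wnt and BMP lists. CST1, the protease inhibitor cystatin SN (3.15), SLPI, a secreted protease inhibitor (2.77), and TNS4, a tensin of focal adhesions (2.98), were among them. TNS4 read 8.04, 7.84 and 7.76 in 2102Ep control and 11.19, 10.74 and 10.79 after siSOX2, and between 7.06 and 7.50 on all NTera-2 arrays. CYP24A1, the enzyme that breaks down vitamin D, had means of 4.69, 7.30, 4.73 and 4.68 in 2102Ep control, 2102Ep siSOX2, NTera-2 control and NTera-2 siSOX2 (difference 2.65). ATP12A, a proton pump (2.73), APOA2, an apolipoprotein of endoderm and liver (2.49), and ANKRD1, a YAP target (2.57), also stood above the other 9 arrays on the 3 arrays of 2102Ep siSOX2. The long non-coding RNA UCA1 rose by 2.40 in 2102Ep from a mean of 9.35, with an NTera-2 control mean of 6.02 and a change there of -0.18 (difference 2.57).

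In a further set of genes the arrays that stood apart were those of 2102Ep control, which lay below the rest. USP3, a histone deubiquitinase, read 7.16, 7.0 and 6.72 in 2102Ep control, 9.43, 9.5 and 9.62 after siSOX2, 10.10, 10.65 and 10.42 in NTera-2 control and 10.26, 9.98 and 10.30 after siSOX2. The 2102Ep control arrays reached 7.16 at most against 9.43 or more elsewhere, and the siSOX2 arrays of 2102Ep stayed below those of NTera-2. USP3 differed by 2.77 ± 0.203 in response (6.80-fold, adjusted p = 1.48e-07), by -3.43 at the start and by -0.66 at the end. CHD7, a chromatin remodeller, had means of 6.68 in 2102Ep control, 8.85 in 2102Ep siSOX2, 10.41 in NTera-2 control and 10.49 in NTera-2 siSOX2 (difference 2.09). IL13RA1, a receptor for interleukin-13, had an ending difference of -0.14 after a starting difference of -2.71. PCLAF, a partner of the replication clamp, went from 4.45 below NTera-2 to 1.78 below it, with a difference of 2.66, but its other probe set gave 0.94. The 2102Ep control arrays were also the lowest for GLI3, a Hedgehog pathway factor (1.49), MACROH2A1, a histone variant (1.79), CAPN2, a protease (1.80), and MED12, a Mediator subunit (1.21).

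The same description over all called genes was as follows. The 3 arrays of 2102Ep control lay below the 9 others in 73 of the 182 higher genes (40.1%, against 5.38% of all genes), and the 3 arrays of 2102Ep siSOX2 lay above the 9 others in 105 (57.7%, against 4.99%). In the 123 lower genes the 2102Ep control arrays lay above the others in 77 (62.6%, against 6.01%) and the 2102Ep siSOX2 arrays below them in 39 (31.7%, against 3.74%). A gene may show a pattern for more than 1 group, and since the difference in response chose these genes the shares describe them and test nothing. Control arrays enter both the starting difference and the difference in response, so the values are only set side by side. In the higher genes the starting level was called lower in 2102Ep for 62 (34.1%, against 4.49% of all genes) and higher for 13 (7.14%, against 3.28%). In the lower genes it was called higher in 2102Ep for 67 (54.5%) and lower for 7 (5.69%). The median starting difference was -0.54 in the higher and 1.09 in the lower genes, and the median ending difference 0.88 and -0.11. Starting levels were called in 7.76% of all genes and ending levels in 7.65%. The ending level was called higher in 2102Ep for 86 of the higher genes (47.3%, against 3.03% of all genes) and lower for 8 (4.4%, against 4.61%). In the lower genes it was called lower for 33 (26.8%) and higher for 15 (12.2%). Departures of NTera-2 arrays were fewer. In the higher genes the control arrays of NTera-2 lay above all others in 30 (16.5%, against 2.16% of all genes) and its siSOX2 arrays below them in 19 (10.4%, against 2.62%). In the lower genes the control arrays of NTera-2 lay below all others in 16 (13%, against 3.49%) and its siSOX2 arrays above them in 16 (13%, against 6.05%). Some group stood apart in 28.9% of all genes.

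**Figure D4:**
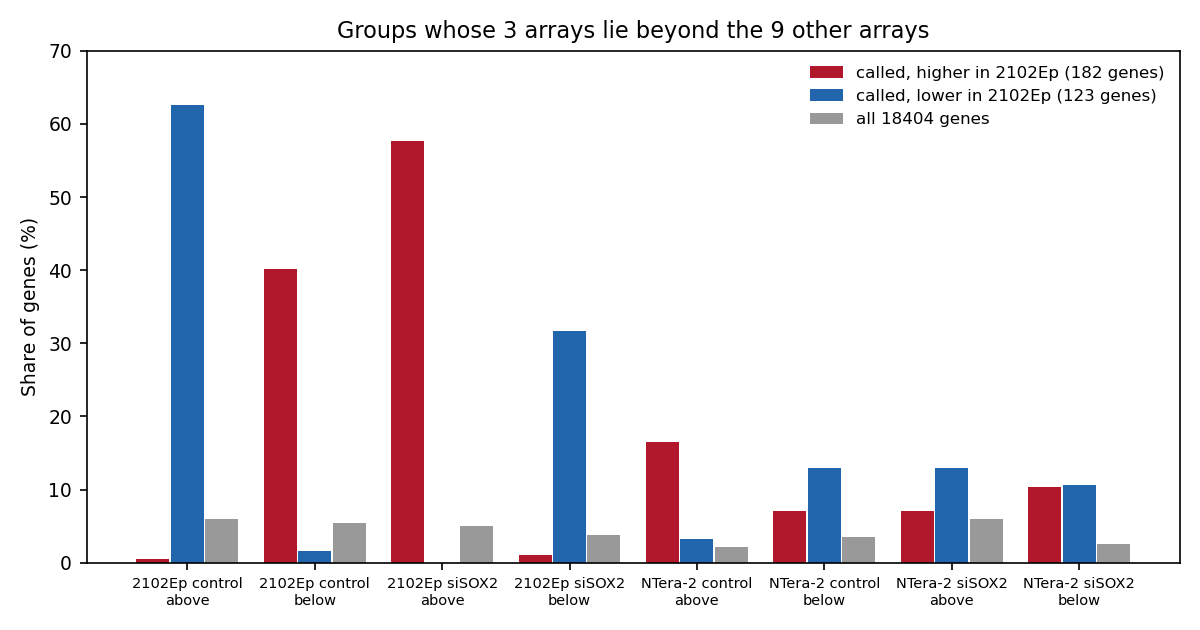
Share of genes (vertical axis, percent) in which the 3 arrays of a group all lay above or all below the 9 other arrays, for the 182 higher genes (red), the 123 lower genes (blue) and all 18404 genes (grey). Departures of the 2 groups of 2102Ep made up the tallest bars: siSOX2 above (57.7%) and control below (40.1%) in the higher genes, control above (62.6%) and siSOX2 below (31.7%) in the lower genes.

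The most negative difference belonged to DPPA5. DPPA5, an RNA-binding protein of pluripotent and germ cells, read 10.60, 11.27 and 10.39 in 2102Ep control, 7.89, 7.91 and 7.99 after siSOX2, 6.04, 5.78 and 5.83 in NTera-2 control and 5.88, 5.96 and 6.08 after siSOX2. The fall was in 2102Ep, and the NTera-2 arrays stayed between 5.78 and 6.08. The difference of -2.91 ± 0.232 (adjusted p = 3.75e-07) went with a starting difference of 4.87. The NTera-2 arrays lay under the array medians of 7.433 to 7.583 in both conditions, and whether a fall from that level could be measured was not tested. IL13RA2, a decoy receptor for interleukin-13 (-2.70), ITPRID1, a protein with a domain that binds inositol trisphosphate receptors (-2.55), and NPY1R, a receptor for neuropeptide Y (-2.36), began 3.64, 3.65 and 3.11 higher in 2102Ep. NTera-2 control means of these 3 genes were 3.58, 5.37 and 5.53, also under the array medians. The neighbouring lectin receptor genes CLEC4D and CLEC6A both had falls in 2102Ep, of means from 9.45 to 6.70 and from 9.57 to 6.66, with differences of -2.21 and -2.19. These differences were smaller than the falls in 2102Ep because both genes also had negative changes in NTera-2. TUBB4A, a neural tubulin, went from 11.22 to 9.11 in 2102Ep and from 9.33 to 9.26 in NTera-2 (-2.04). PYGM, the glycogen phosphorylase of muscle (-2.33), ABCA1, a cholesterol exporter (-1.76), and SERPINF1, a secreted serpin (-1.74), had NTera-2 changes of 0.74, 0.50 and 0.42.

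Among pluripotency genes the called differences were all lower in 2102Ep. Of 27 measured, which do not include POU5F1 and NANOG, 3 were called lower and none higher (11.1%), and the median was -0.35, from a median change of -0.86 in 2102Ep and of -0.47 in NTera-2. USP44, a deubiquitinase of the mitotic checkpoint, read 9.77, 9.94 and 9.47 in 2102Ep control, 7.48, 7.74 and 7.08 after siSOX2, 11.32, 11.70 and 11.49 in NTera-2 control and 10.88, 10.69 and 10.86 after siSOX2. Both lines moved down and 2102Ep moved further, with a difference of -1.60 ± 0.222. DPPA5 and VENTX, a homeobox repressor (-1.05), were the others. PRDM14, a repressor of differentiation, fell in both lines, by 2.38 and 1.5, and its difference of -0.88 (interval -1.30 to -0.46) was under the threshold. CRIPTO, the Nodal co-receptor, fell by 1.16 and 1.02 (difference -0.15, interval -0.89 to 0.60). LIN28A, an RNA-binding protein of pluripotent cells, had changes of 0.02 and 0.44. SOX15 was the only other SOX gene of 18 with a called difference (-1.53), having begun 3.01 higher in 2102Ep.

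The locus of miR-31 was among the lower genes. MIR31HG, its host transcript, read 8.49, 8.62 and 7.76 in 2102Ep control, 6.66, 6.45 and 6.46 after siSOX2, 5.69, 6.04 and 5.61 in NTera-2 control and 5.56, 5.61 and 5.44 after siSOX2. The 2102Ep siSOX2 arrays lay below those of 2102Ep control and above those of NTera-2, and the difference was -1.53 ± 0.248 (adjusted p = 0.000866). The probe set of MIR31, which reads the region of the precursor and not the mature miRNA, had means of 8.0, 6.61, 6.35 and 5.97 and a difference of -1.03. That call was lost without any 1 of 7 arrays, with -0.76 when 2102Ep control replicate 3 was left out, -0.95 and -1.03 for 2102Ep siSOX2 replicates 2 and 3, -0.98 and -1.01 for NTera-2 control replicates 2 and 3, and -0.99 and -0.93 for NTera-2 siSOX2 replicates 1 and 2. It was also lost with median centring (-0.97). The NTera-2 means of MIR31HG and MIR31 lay under the array medians of 7.433 to 7.583. Whether a fall from that level could be measured was not tested. By qRT-PCR the paper lists mature miR-31 as downregulated after the knock-down in both lines. The mature miRNA from this locus, at chr9:21512158-21512178 on the minus strand of GRCh38.p14 as given by RefSeq, is shown with its seed (bases 2 to 8) in capitals.
hsa-miR-31-5p: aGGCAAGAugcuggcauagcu

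**Figure D5:**
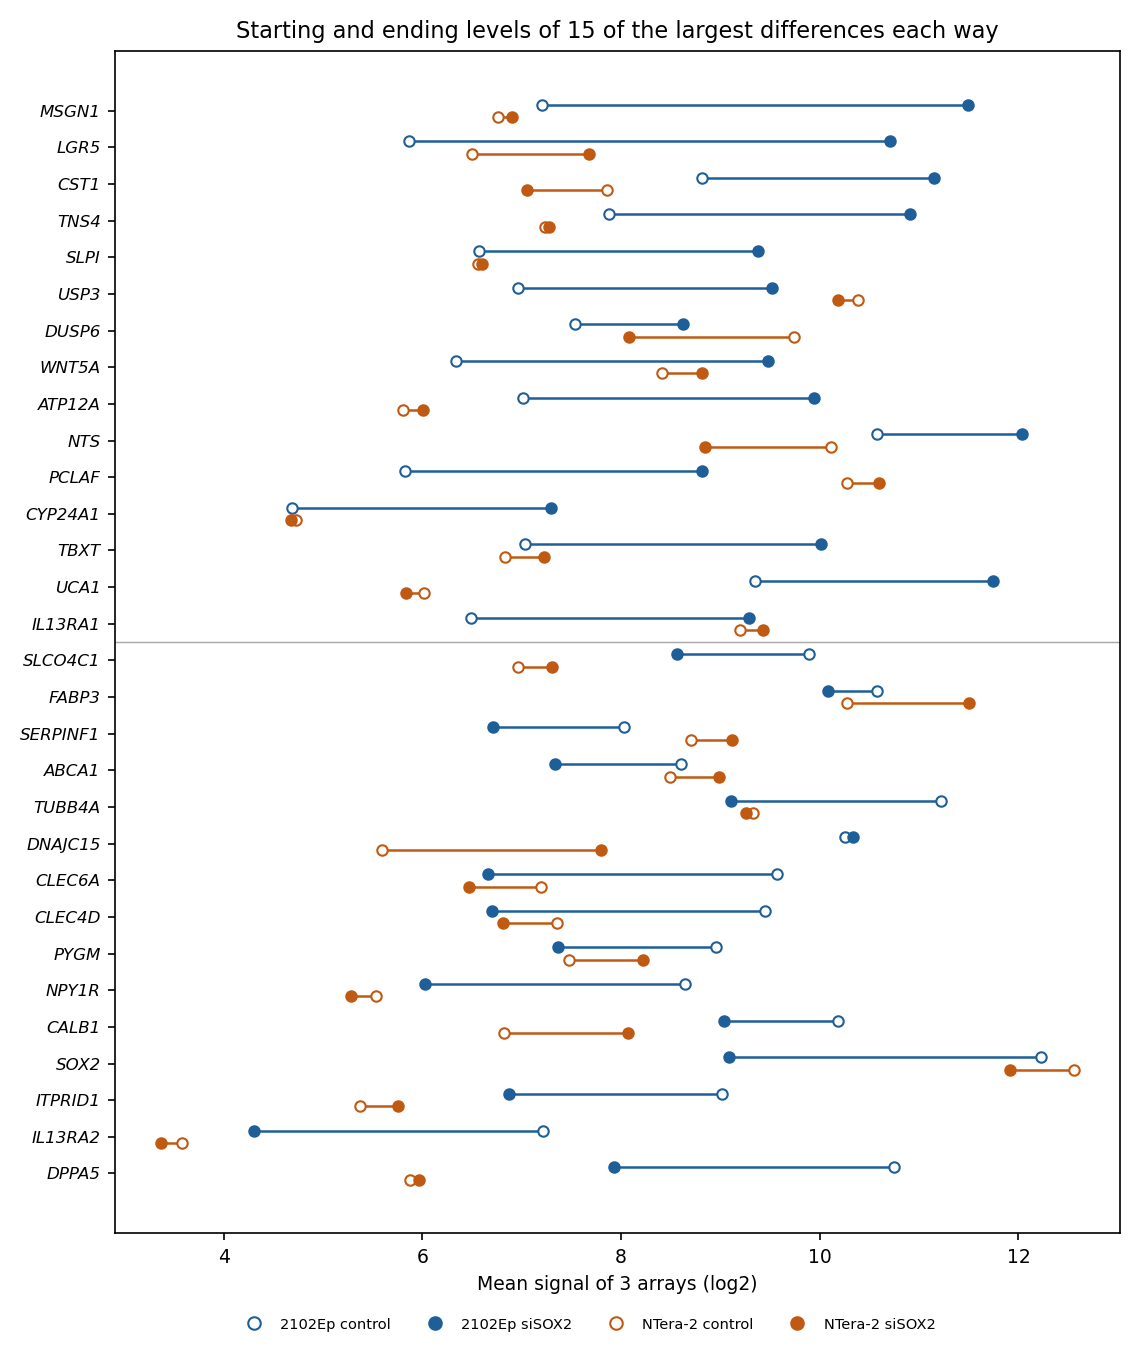
Mean log2 signal of 3 arrays (horizontal axis) before (open circles, control) and after siSOX2 (filled circles) in 2102Ep (blue) and NTera-2 (orange), for 15 of the genes with the largest positive (upper rows) and the 15 with the largest negative difference (lower rows). USP3 and PCLAF began far apart and converged, MSGN1 began close and diverged, and DNAJC15 moved in NTera-2 alone.

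A minority of differences came from NTera-2. DNAJC15, a co-chaperone of the inner mitochondrial membrane, read 10.42, 10.73 and 9.59 in 2102Ep control, 10.17, 10.41 and 10.40 after siSOX2, 5.57, 5.40 and 5.80 in NTera-2 control and 7.98, 7.67 and 7.76 after siSOX2. Its rise of 2.21 in NTera-2 met a change of 0.08 in 2102Ep, where it was already high (difference -2.13 ± 0.290, adjusted p = 0.000162). SEMA6D, a transmembrane semaphorin, rose by 2.23 in NTera-2 with a change of 0.93 in 2102Ep (-1.30). LGI1, a secreted neuronal protein, had changes of 1.67 in NTera-2 and 0.33 in 2102Ep (-1.34), and FABP3, a fatty acid carrier, 1.24 and -0.50 (-1.73). Genes that fell only in NTera-2 included TM4SF18, a tetraspanin-like membrane protein, with arrays of 8.92, 9.14 and 9.18 in NTera-2 control and of 6.93, 6.52 and 7.06 after siSOX2, against 6.54 to 7.02 on all 2102Ep arrays. That is a fall by 2.24 to the level that 2102Ep held throughout, and a difference of 2.26 ± 0.211. The cadherin CDH6 fell by 1.99 (difference 1.82), PPP1R17, an inhibitor of protein phosphatases, by 1.73 (2.20), and FEZ1, an adaptor of axonal transport, by 1.51 (1.96).

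For 4 genes each line's own test was passed with opposite signs, namely DUSP6, described above, NRP1, NTS and CALB1. NRP1, a co-receptor for semaphorins and VEGF, read 6.39, 6.55 and 7.02 in 2102Ep control, 8.05, 7.88 and 8.02 after siSOX2, 7.59, 8.01 and 7.69 in NTera-2 control and 6.52, 6.63 and 6.68 after siSOX2. NRP1 began 1.11 lower and ended 1.37 higher in 2102Ep. It rose by 1.33 in 2102Ep and fell by 1.15 in NTera-2, a difference of 2.48 ± 0.206 (adjusted p = 6.02e-07). NRP2, its relative, did not share this, with changes of 1.58 and 0.42 and a difference of 1.15 (0.68 by its other probe set, and 0.91, not called, by the mean of both). NTS, the precursor of the peptide neurotensin, rose by 1.46 in 2102Ep and fell by 1.26 in NTera-2 from starts that differed by 0.47 (difference 2.72 ± 0.261). CALB1, a calcium buffer of neurons, was the reverse: it fell by 1.14 in 2102Ep from a mean of 10.18 and rose by 1.25 in NTera-2 from 6.82, a difference of -2.39 ± 0.322 (adjusted p = 0.000147).

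Responses called in both lines were fewer. In both lines 52 of the 18404 genes were called, 48 in the same direction. By line, 1.98% of all genes were called in 2102Ep and 0.657% in NTera-2. Of the 22 that rose in both, 11 also had a called difference, and each of these rose more in 2102Ep. Of the others, 10 had an interval of the difference within -1 to 1, among them EOMES, PLXNA2, a semaphorin receptor (rises of 2.02 and 1.81, interval of the difference -0.15 to 0.58), and GAD1, which makes the transmitter GABA (1.44 and 1.41, interval -0.35 to 0.42). Of the 26 that fell in both, 13 had such an interval. Among all genes the share with such an interval was higher, at 93.5%, which includes genes with no called response in either line. ARSL, a sulfatase of cartilage, read 11.64, 11.51 and 11.57 in 2102Ep control, 10.29, 10.26 and 10.17 after siSOX2, 9.07, 9.19 and 8.95 in NTera-2 control and 7.76, 7.59 and 7.91 after siSOX2. It fell by 1.33 and 1.32 from starts 2.50 apart, with a difference of -0.01 (interval -0.33 to 0.31). SEMG1, a seminal vesicle protein, fell by 1.80 and 1.89 (interval -0.53 to 0.71). The 3 genes that fell in both with a called difference, AK4, SHISA3 and TMT1A, fell more in NTera-2, so that not every response was smaller in that line. AK4, a mitochondrial adenylate kinase, fell by 1.70 in 2102Ep and by 2.99 in NTera-2 (difference 1.29), but its other probe set gave -0.02, and with the mean of its probe sets (0.64) the call was lost. TMT1A, a methyltransferase, had a difference of 1.01 (adjusted p = 0.0441) and lost its call without any 1 of 10 arrays, all but 2102Ep control replicate 2 and NTera-2 control replicate 1, with differences of 0.78 to 1.08. The call of TMT1A was also lost with median centring (1.06), a second quantile normalization (0.96) and array weights (0.94).

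Several lists carried no called difference. None was called among 28 proliferation genes (median -0.04), 20 p53 targets (0.06), 31 interferon response genes (0.00), 16 sterol synthesis genes (-0.02), 9 reference genes (0.04) and 11 leukocyte markers (0.04). Of all genes 1.66% were called, so lists this short may well hold none, and these counts do not set them apart from other genes. The fibroblast and endothelial lists, with 1 gene called in each, had medians of -0.02 and -0.19. Of 30 glycolysis and hypoxia genes, 2 were higher and 3 lower (16.7%, median -0.27). ADM, the peptide adrenomedullin, was higher because it fell by 1.45 in NTera-2 (change in 2102Ep -0.35, difference 1.10), and AK4 was described above. P4HA1, a prolyl hydroxylase of collagen (-1.28), ALDOC, an aldolase (-1.08), and BNIP3, a mitophagy receptor (-1.04), were lower. ALDOC fell under the threshold without 2102Ep control replicate 1 (-0.96), NTera-2 control replicate 1 (-0.99) or NTera-2 siSOX2 replicate 3 (-0.98), and after a second quantile normalization (-0.99). BNIP3 did so without 2102Ep control replicate 2 (-0.88) or NTera-2 siSOX2 replicate 3 (-0.98), and with median centring (-0.99), a second quantile normalization (-0.95) or array weights (-0.98). Of 39 HOX genes 27 were measured, and HOXA2 was the only one of the HOXA cluster, so the rest of that cluster was not tested. Of the 27, HOXA2 (1.57) and HOXB6 (1.30) were higher, both at 2102Ep siSOX2 means under 8. CRABP2, a carrier of retinoic acid, was the only one of 20 retinoid genes called (1.18).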

How the data were processed

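RNA of 12 cultures was hybridised to Affymetrix Human Gene 1.0 ST arrays. The deposited log2 values were made by the authors with the manufacturer's software by the RMA method, which corrects background, equalises quantiles between arrays and summarises each probe set. No source used here gives its version or the base of the logarithm, which was taken as 2 from the range of the values. Arrays give no read depth. The submitters' processing notes also name limma.

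Of 32321 probe sets, 19158 named 1 gene, 1388 several and 11775 none. For each of 18404 genes the brightest single-gene probe set, by its mean of 12 arrays, was kept. Symbols were updated through RefSeq GRCh38.p14, where 18376 matched and 28 did not. limma 3.58.1 in R 4.3.3 was fitted with 1 mean per group on all arrays, with contrasts for the difference in response, each line's response, and the starting and ending differences. Benjamini-Hochberg adjustment ran over all genes. A gene was called at an adjusted p of 0.05 or less, an unadjusted p of 0.01 or less and a log2 size of at least 1, which is called higher or lower for the sign; errors are SE and intervals are 95%. Since the arrays are labelled biological replicates with 3 per group, the p-values measure the spread between these cultures. Tested on simulated data for the difference in response (18404 genes, 100 changed genes at each size), the fit recovered 91% at a log2 change of 1.2, 98% at 1.5 and 100% at 3, with 2 false calls. The simulated noise was independent between genes and of equal spread on every array. In the data the array weights ran from 0.375 to 4.95, so these rates check the procedure and are not error rates of the calls here. Tables and figures were made with Python 3.11.15, pandas 2.3.3, numpy 2.4.6 and matplotlib 3.10.9.

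Groups came from the labels. The comparison, the gene lists and the genes were chosen with earlier results of these data known. Genes were named by rule: SOX2, the 15 largest differences each way, genes called in opposite directions or in both lines, up to 6 called members of each list, the 10 called genes with the largest starting difference, and main members of a list. Only some of the genes the rule took are reported here. TM4SF18, CDH6, PPP1R17, MIR31, MIR31HG, MACROH2A1, MED12, CAPN2, TCF7L1, LGI1, CDX2, LHX1, SP8, RSPO3, WLS, TFAP2C, SNAI1, IL13RA1, GLI3, TMT1A and FEZ1 were chosen after their values were seen. Alternatives were another centring, a second quantile normalization, array weights, a mean-variance trend, the mean of probe sets, a filter on dim genes, other thresholds, the replicate number as a block, and leaving out each array.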

Additional observations from a re-analysis of the deposited data

Results flagged for a closer look

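Responses to siSOX2 in the lines differed by a test of the difference itself for 305 genes, which are the subject of the report. SOX2, the targeted gene, was one of them, with a difference of -2.49. DUSP6 (2.75), NRP1 (2.48), NTS (2.72) and CALB1 (-2.39) differed in this test and also passed each line's own test with opposite signs. The call of CALB1 was lost in a test against a log2 size of 1.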

How the results depend on the processing

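Leaving out dim genes reduced the called differences in response to 166 (100 higher, 66 lower), the calls to 212 (117, 95) in 2102Ep, 66 (31, 35) in NTera-2, 866 (319, 547) at the start and 818 (283, 535) at the end, and the called genes with a group that stood apart to 164. Dim genes were those with a mean signal under the median of all genes. These counts are therefore out of far fewer genes, and their drop alone does not show that calls were unstable. A test against a log2 size of 1 left 54 (47, 7), 114 (79, 35), 21 (11, 10), 512 (222, 290), 511 (233, 278) and 53. With no size threshold 957 genes (466, 491) differed. Other settings stayed within 1.5 times: 296 (203, 93) with median centring, 310 (202, 108) after a second quantile normalization, 302 with the mean of probe sets, 306 with a trend, 314 with array weights and 290 at an adjusted p of 0.01. Of the 305 genes, 273 were still called with median centring and 273 to 290 with 1 array left out, where the counts ran from 297 to 331 (178 to 203 higher, 103 to 147 lower), 353 to 391 in 2102Ep, 121 to 129 in NTera-2, 1388 to 1520 at the start and 1358 to 1540 at the end. SOX2 ran from -2.60 to -2.35, and called genes with a group apart from 292 to 325. Over 20 settings and 120 genes named by the rule or after their values were seen that had a called difference, none changed sign, 2208 values kept the call, 148 lost it and 44 were missing because the gene was left out as dim.

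Over all pairs, same-numbered arrays did not deviate together (correlations of -0.377 to 0.268 for 18 pairs, against -0.417 to 0.459 for 36 pairs of other numbers). Between the siRNAs of a line, same-number correlations were 0.065, 0.179 and 0.128 in 2102Ep and -0.249, -0.206 and 0.136 in NTera-2. Whether the numbers pair cultures within a line was not tested. With the replicate block, in which a number has the same effect in both lines, 307 genes were called (184 higher, 123 lower), all 305 among them. With 1 siRNA, no rescue, and line, reagent and the depth of the knock-down in RNA changing together, the source of any difference cannot be told apart. Genes near the size threshold are those lost in the most settings, and 3 arrays a group limit the precision. The test against a log2 size of 1 also lost genes further from the threshold, such as CALB1, CLEC6A, DNAJC15, BMP2 and DKK1.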
